A study of Mus musculus with 8 samples.

Results

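The genes examined were 10 marker genes of astrocytes (Gfap, Aqp4, Aldh1l1, Gja1, Gjb6, Slc1a3, S100b, Sox9, Aldoc and Fgfr3), taken by gene symbol from a table of 14353 genes measured in the mouse ventral pallidum (VP), a basal forebrain region. All 10 had values, and all 10 passed the filter on low values, which kept 14249 genes. The mice were homozygous for VGluT2-Cre, which places Cre recombinase at the Slc17a6 locus, and heterozygous for the RiboTag allele of Rpl22, which gives Cre-expressing cells ribosomes with a hemagglutinin tag. Translating ribosome affinity purification (TRAP) pulled the tagged ribosomes and their mRNA out of the tissue lysate, and INPUT was lysate set aside before the pulldown and labelled as holding all neurons and glia. Both fractions therefore carried both alleles, and neither received a treatment. Tissue was pooled into 4 samples (pool VP1.6 and pools VP2.2, VP2.6, VP2.11), and from each pool came 1 TRAP and 1 INPUT library (n = 4 per fraction). The pools held 38 adult mice, 15 male and 23 female, with 7 to 11 mice in a pool, aged 9 to 12 weeks in VP1.6 and 10 to 16 weeks in the other pools. Because animals were pooled, no value belongs to 1 mouse. Where the sequencing is described, the methods name an unbound fraction, whereas the labels say input, and the text of the study counts more samples and mice than the labels used here.

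Astrocytes clear glutamate and potassium from the space around synapses, move water at blood vessel walls, and are joined into networks by gap junctions. Cre was driven here from the locus of a vesicular glutamate transporter of neurons, so the comparison of TRAP with INPUT asks how much of each astrocyte transcript was still found after a pulldown aimed at other cells.

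Of the 10 astrocyte genes, 8 were lower in TRAP, 0 were higher (also 0 at an unadjusted p under 0.05), and Aldh1l1 and Aldoc did not pass the test (limma, Benjamini-Hochberg adjusted p under 0.05 over all genes tested). Across all genes 24.8% were lower by the same rule, and 47.9% were called in either direction. With the pool added to the fit as a block, the 8 genes were again called lower, where 16.8% of all genes were lower and 32.2% were called in either direction. The 10 log2 fold changes had a median of -1.80, beside -0.05 over all genes tested. As shares of the INPUT level kept in TRAP, the geometric means over the pools ran from 12.5% for S100b to 93.7% for Aldoc. Levels are given in CPM, reads scaled to a library size that the authors adjusted by TMM factors. A level, and so a share kept, is relative to the rest of its library. Both libraries of a pool came from the same lysate, so a share kept does not compare numbers of astrocytes or their RNA per cell. Less astrocyte RNA in TRAP and more RNA of other cells there cannot be told apart.

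**Figure D1:**
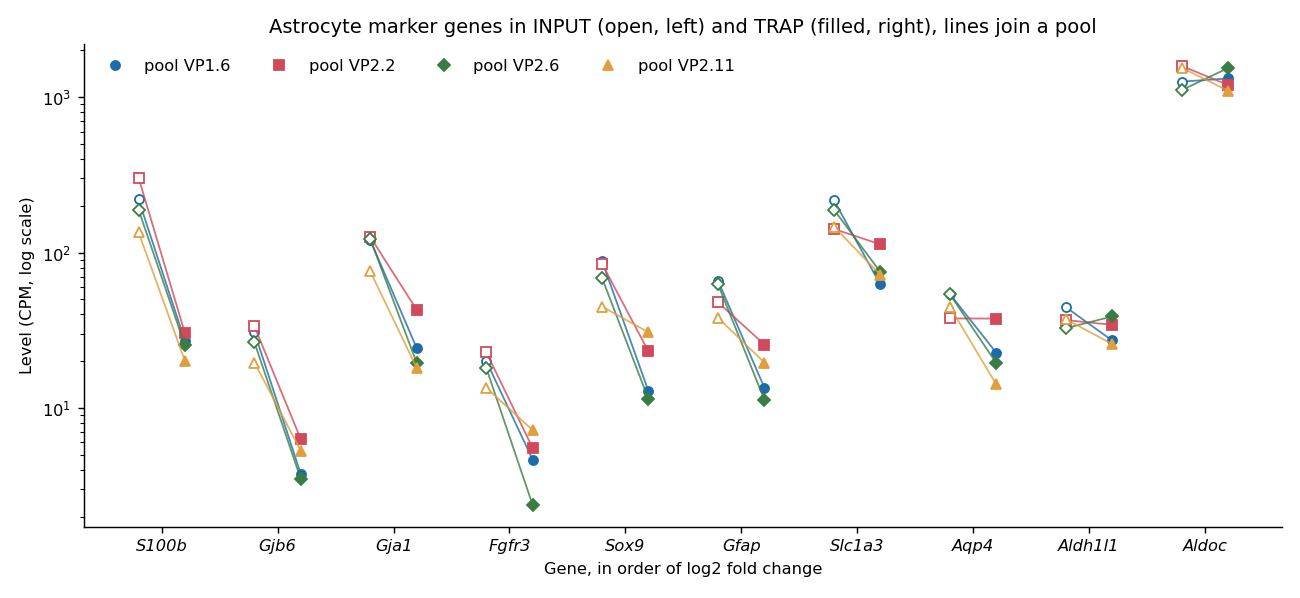
Level of each astrocyte gene (CPM, log scale) in the INPUT (open symbols) and TRAP (filled symbols) libraries, with lines joining the 2 libraries of a pool and genes ordered by log2 fold change. The lines fall for 8 genes in every pool, with Aqp4 in VP2.2 nearly level, whereas the Aldh1l1 lines fall in 3 pools and the Aldoc lines in 2.

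The 8 libraries are not 8 independent values. In 14249 of 14249 genes (100%, tolerance 0.05 log2), 1 level could be drawn that lay between the TRAP and the INPUT value of every pool, against 52.1 to 61% of genes when INPUT was taken from another pool. As a result all 3471 genes that were lower in TRAP in the 4 pools, 24.4% of those tested, also had every TRAP library below every INPUT library, and the separation of the fractions adds nothing to the direction within pools. That separation held for the 8 genes called. The exact two-sided permutation p of each was 0.0286, the smallest that 4 against 4 libraries allow, and over the 4 pools alone an exact sign-flip test cannot go below 0.13. The deposited values may hold an adjustment for the pool, gene by gene. How they were made is not given in the sources used here, so a level or share in 1 pool may not be that pool's measured level, and its place among the pools is a description of the deposited values. Values from the blocked fit are therefore given beside those without the block.

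S100b, which encodes a small calcium-binding protein, and Aldoc, which encodes a brain form of the glycolytic enzyme aldolase, stood at the ends of the range of shares kept. The lower end depends on the setting. With the trend on exon length taken out, the log2 fold change of S100b was -2.51 and that of Gja1 was lowest, at -2.53. The promoters of S100b and Aldoc are shown because these genes were the ends of that range: each window runs from 250 bases before to 50 after the RefSeq start on the plus strand (GRCm38.p6), at chr10:76253586-76253885 for S100b and chr11:78322823-78323122 for Aldoc. Capitals mark matches to TTGGC, the half-site of the NFI factors, on either strand.
S100b: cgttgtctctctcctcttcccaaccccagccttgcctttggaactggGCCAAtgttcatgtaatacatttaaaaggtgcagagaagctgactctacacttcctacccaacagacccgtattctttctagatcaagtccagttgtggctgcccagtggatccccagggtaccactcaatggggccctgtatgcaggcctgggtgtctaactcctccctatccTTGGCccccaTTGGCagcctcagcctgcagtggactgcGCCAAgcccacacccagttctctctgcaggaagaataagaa
Aldoc: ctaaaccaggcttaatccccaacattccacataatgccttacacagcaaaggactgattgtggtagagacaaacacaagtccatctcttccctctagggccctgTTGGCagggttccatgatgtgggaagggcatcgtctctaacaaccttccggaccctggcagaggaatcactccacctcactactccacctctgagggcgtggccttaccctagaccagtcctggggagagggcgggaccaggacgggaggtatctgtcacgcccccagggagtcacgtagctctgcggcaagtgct
The S100b window held 4 matches and the Aldoc window 1. Of the 10 genes, 8 had 10 promoter entries in the RefSeq table, since Aldoc and Fgfr3 have more than 1, and 2 of the 10 entries held TTGGC, against 46.7% of 32851 promoters of the same length. TATAAA, the letters of the TATA box motif, was in 1 entry (Slc1a3, reverse strand, offset -161 from the start) against 13.6% of promoters. ACAATG, a SOX motif, was in 0 entries against 12.6%. The matches are letters in a window, and the libraries measured no binding there.

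The S100b gene (GRCm38 chr10:76253853-76261159) was measured in INPUT at 220, 304, 189 and 135 CPM, with pools in the order VP1.6, VP2.2, VP2.6, then VP2.11 here and throughout. In TRAP it stood at 27.0, 30.3, 25.3 and 20.1 CPM. No TRAP library came near the INPUT range, and VP2.11 was lowest in both fractions. The mean fell from 212 ± 70.5 to 25.7 ± 4.24 CPM (SD, n = 4), a log2 fold change of -3.0 (SE 0.23, limma adjusted p = 3.8e-05; SE 0.21 and adjusted p = 3.2e-07 with the block). The 4 pools kept 12.3%, 9.96%, 13.4% and 14.9% of INPUT. Those shares were the most even of the 10 genes, with an SD of the log2 difference of 0.25.

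Aldoc (chr11:78322968-78327781) stood at 1260, 1590, 1110 and 1550 CPM in INPUT and at 1320, 1200, 1540 and 1100 CPM in TRAP. The fractions overlapped, with TRAP higher in VP1.6 and VP2.6 and lower in VP2.2 and VP2.11. The log2 fold change was -0.09 (SE 0.17, limma adjusted p = 0.68), with a 95% interval of -0.48 to 0.29, or -0.66 to 0.47 with the block (adjusted p = 0.81). The sign of this small value was not stable: it was 0.03 with the trend on exon length taken out, 0.17 with libraries weighted, 0.01 without VP2.2 and 0.04 without VP2.11, and quantile normalization gave -0.45 and a call (adjusted p = 0.029). At 93.7% of INPUT on average, with pools from 70.7% to 138%, Aldoc also made up most of the summed level of the 10 genes, which ran from 1310 to 1740 CPM in TRAP and from 1870 to 2420 CPM in INPUT.

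Gfap (chr11:102887336-102900912) encodes the intermediate filament protein of the astrocyte skeleton and is the usual stain for these cells. In INPUT it stood at 65.8, 47.8, 62.4 and 38.1 CPM, and in TRAP at 13.5, 25.6, 11.3 and 19.6 CPM. Every TRAP library was below every INPUT library, but the pools fell into a lower and a higher pair, since VP1.6 and VP2.6 kept 20.5% and 18.2% of INPUT and VP2.2 and VP2.11 kept 53.6% and 51.4%. The log2 fold change was -1.65 (SE 0.27, limma adjusted p = 0.00082; SE 0.29 and adjusted p = 0.0009 with the block).

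Aldh1l1 (chr6:90486427-90600203), which encodes a folate enzyme used as a pan-astrocyte marker, kept far more. Its INPUT levels were 44.6, 36.8, 32.6 and 37.3 CPM and its TRAP levels 27.2, 34.3, 38.8 and 25.8 CPM. The fractions overlapped, with TRAP lower in 3 of 4 pools and higher in VP2.6. The mean moved from 37.8 ± 5.01 to 31.5 ± 6.11 CPM (SD, n = 4), a log2 fold change of -0.27 (SE 0.17, limma adjusted p = 0.20), with a 95% interval of -0.65 to 0.10, or -0.79 to 0.24 with the block (adjusted p = 0.41). Up to 499 of its exon bases are shared with the opposite-strand gene Gm15756 and 105 with the same-strand gene Gm45901. Neither had values in the table. The methods count only reads that are unambiguous and align uniquely, and whether strand was used in counting is not given.

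The connexins Gja1 (connexin 43, chr10:56377330-56402513) and Gjb6 (connexin 30, chr14:57123303-57133611) form the gap junctions between astrocytes. Gja1 stood at 120, 126, 122 and 75.6 CPM in INPUT and at 24.3, 42.8, 19.5 and 18.1 CPM in TRAP, a log2 fold change of -2.14 (SE 0.27, limma adjusted p = 0.00024; SE 0.23 and adjusted p = 2.3e-05 with the block). Gjb6 stood at 30.7, 33.5, 26.4 and 19.6 CPM in INPUT and at 3.75, 6.29, 3.49 and 5.31 CPM in TRAP, a log2 fold change of -2.56 (SE 0.24, limma adjusted p = 7.7e-05; SE 0.30 and adjusted p = 4e-05 with the block). Both fell in every pool with no overlap between fractions. In INPUT, VP2.11 was the lowest library for both. On average Gja1 kept 22.6% and Gjb6 17.0% of INPUT.

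Among transport proteins of the plasma membrane, Aqp4 (chr18:15389496-15410982) encodes the water channel of astrocyte endfeet. It stood at 54.2, 37.7, 54.0 and 44.9 CPM in INPUT and at 22.7, 37.6, 19.5 and 14.2 CPM in TRAP. In VP2.2 the fractions were level, at 99.9% of INPUT, while the other pools kept 31.6% to 41.9%, so the highest TRAP value lay just below the lowest INPUT value. The log2 fold change was -1.10 (SE 0.26, limma adjusted p = 0.0067; SE 0.28 and adjusted p = 0.0083 with the block). Without pool VP2.6 the value was -0.97 and the call was lost (adjusted p = 0.056, or 0.041 with the block), and without VP2.2 it was -1.46.

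Slc1a3 (chr15:8634124-8710764) encodes GLAST, a glutamate transporter of astrocytes. INPUT libraries held 217, 142, 189 and 147 CPM and TRAP libraries 62.4, 113, 75.1 and 72.0 CPM. Here too VP2.2 was the pool with the smallest drop, keeping 79.6% of INPUT, against 28.8%, 39.7% and 49.0% in VP1.6, VP2.6 and VP2.11. The log2 fold change was -1.12 (SE 0.20, limma adjusted p = 0.0015; SE 0.25 and adjusted p = 0.0035 with the block).

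Sox9 (chr11:112782224-112787760) encodes a transcription factor of the glial lineage that in the adult brain is found mainly in astrocyte nuclei. It stood at 88.0, 84.5, 68.4 and 44.9 CPM in INPUT and at 12.8, 23.1, 11.4 and 30.7 CPM in TRAP. VP2.11 had the lowest INPUT and the highest TRAP value, and kept 68.3%, where the other pools kept 14.5% to 27.3%. This was the widest spread of the 10 genes, with an SD of the log2 difference of 1.01. The log2 fold change was -1.95 (SE 0.33, limma adjusted p = 0.00096; SE 0.32 and adjusted p = 0.00049 with the block), and -2.41 without VP2.11.

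Fgfr3 (chr5:33721674-33737068) encodes a receptor for fibroblast growth factors and was the least abundant of the 10 genes in INPUT by CPM. INPUT libraries held 20.1, 22.9, 18.1 and 13.5 CPM and TRAP libraries 4.66, 5.53, 2.38 and 7.21 CPM. VP2.11 again had the lowest INPUT and the highest TRAP value, and kept 53.2%, against 13.1% to 24.2% in the other pools. The log2 fold change was -2.0 (SE 0.32, limma adjusted p = 0.00076; SE 0.34 and adjusted p = 0.0007 with the block). The gene shares up to 998 exon bases with the opposite-strand gene G630022F23Rik, which had no values in the table.

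**Figure D2:**
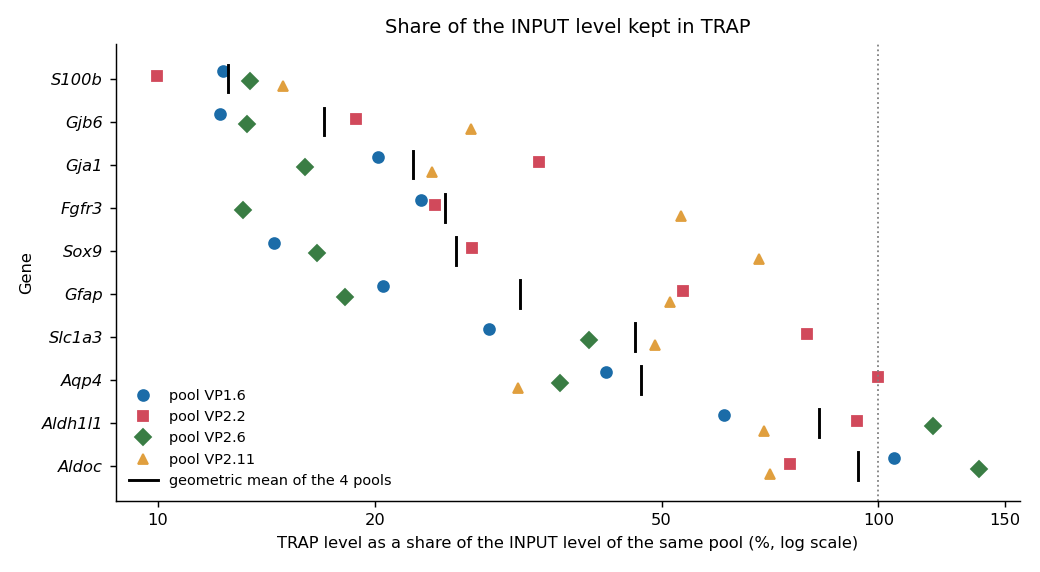
TRAP level as a share of the INPUT level of the same pool (%, log scale) for each astrocyte gene, with 1 symbol per pool and a bar at the geometric mean of the 4 pools. The means run from 12.5% for S100b to 93.7% for Aldoc, and the pools lie closest together for S100b and farthest apart for Sox9.

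Compared per kilobase of exon, so that genes of different length can be set side by side, mean INPUT levels ran from 2.61 ± 0.549 CPM per kb (SD, n = 4) for Fgfr3 to 422 ± 70.7 for Aldoc. S100b came next below Aldoc at 143 ± 47.5, and no library of the one reached the range of the other. Slc1a3 (20.4 ± 4.18), Sox9 (17.3 ± 4.75) and Gfap (12.7 ± 3.07) followed, each overlapping its neighbour in range. Gja1 (10.8 ± 2.32), Gjb6 (10.3 ± 2.26), Aldh1l1 (8.37 ± 1.11) and Aqp4 (7.65 ± 1.28) could not be ordered beyond their spread. In TRAP, Aldoc was at 395 CPM per kb and S100b at 17.3. Slc1a3 was at 9.45, Aldh1l1 at 6.98, Sox9 at 4.71, Gfap at 4.15, Aqp4 at 3.77, Gja1 at 2.55, Gjb6 at 1.76 and Fgfr3 at 0.691 CPM per kb of TRAP level.

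The departure of a gene from the depletion was measured in each pool as its log2 difference less the median of the other 9 genes. Aldoc departed upward in all 4 pools, by 2.35, 1.15, 3.06 and 0.53. Aldh1l1 did likewise, by 1.57, 1.47, 2.84 and 0.50. At the other end, S100b (-0.91, -2.43, -0.44 and -1.79), Gjb6 (-0.92, -1.51, -0.45 and -0.92) and Gja1 (-0.20, -0.66, -0.18 and -1.10) departed downward in all 4 pools. Aqp4 and Slc1a3 were above in 3 pools and below in VP2.11, with mean departures of 0.75 and 0.73. Gfap was close to the median gene, at a mean of 0.17 with an SD of 0.35 over pools.

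Pools differed in how far the genes fell. The median log2 difference of the 10 genes was -2.20 in VP1.6, -1.23 in VP2.2, -2.52 in VP2.6 and -1.0 in VP2.11, while the median of all genes was between -0.04 and -0.01 in each. In VP2.2 the TRAP library was the highest of its fraction for 6 of the 10 genes. In VP2.11 the INPUT library was the lowest of its fraction for 6 genes, and its TRAP library was lowest for 5 and highest for 2. Effective library sizes, which include the TMM factor and are not read counts, were estimated from steps in the low values. They were 13.4 M (TRAP) against 40.4 M (INPUT) in VP2.2 and 12.7 M against 25.3 M in VP2.6. Whole reads were found for 61.8% and 81.4% of low genes. Rounding of the deposited values left these sizes unknown in VP1.6 and VP2.11, and the part of depth in the pool differences was not tested.

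In 4 pairs of genes the difference between the genes was compared within each library, which removes any scaling of the library. Slc1a3 and Slc1a2 encode the astrocyte glutamate transporters GLAST and GLT-1. Slc1a3 minus Slc1a2 averaged 0.00 on the log2 scale in INPUT and -1.33 in TRAP, a change of -1.34 ± 0.48 (SD over 4 pools) that was negative in every pool (exact two-sided permutation p = 0.0286, adjusted over the 4 pairs 0.0571; exact sign-flip p = 0.13, adjusted 0.25). Slc1a2 itself was at 185, 108, 214 and 199 CPM in INPUT and at 199, 253, 171 and 179 CPM in TRAP, with no call (log2 fold change 0.21, limma adjusted p = 0.44). Its sign turned to -0.27 with the trend on exon length taken out, to -0.06 with libraries weighted and to -0.13 without VP2.2.

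Gfap minus Aldh1l1 changed by -1.38 ± 1.01 from INPUT to TRAP, also negative in every pool, with the same exact p-values of 0.0286 by permutation (adjusted 0.0571) and 0.13 by sign flip (adjusted 0.25). Neither this pair nor Slc1a3 minus Slc1a2 passed 0.05 after adjustment, and with these values neither could. Both permutation values were the smallest that 4 against 4 libraries allow, which with only these pairs at that floor gives 0.0571. A sign-flip test over 4 pools cannot go below 0.13. The adjusted values therefore do not decide whether the genes of a pair differed in their change. Gja1 minus Gjb6 changed by 0.42 ± 0.47, higher in 3 of 4 pools (exact permutation p = 0.143, adjusted 0.19). Aldh1l1 minus Aldoc changed by -0.18 ± 0.46, lower in 3 of 4 pools (exact permutation p = 0.371, adjusted 0.371), so for these pairs a difference in change was not detected with 4 pools.

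A wider list of 62 astrocyte genes was then read in the same fit, and 58 had values and were tested. In TRAP, 34 of the 58 were lower and 2 higher, against 24.8% and 23.2% of all genes, and with the block 33 were lower and 1 higher, against 16.8% and 15.4%. The same shares of all genes stand beside the counts by role given below. Their log2 fold changes had a median of -1.0. The share of genes called lower was thus smaller than among the 10 markers, and the median drop was shallower in 3 of 4 pools (-1.17, -0.50 and -1.11 in VP1.6, VP2.2 and VP2.6) and slightly deeper in VP2.11 (-1.07). The difference between the lists was not tested.

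Of 16 genes of lipid, sugar and metal metabolism, 9 were lower in either fit, beside 24.8% of all genes, or 16.8% with the block. Mt2 and Mt1 encode metallothioneins, which bind zinc and copper. Mt2 was at 138, 173, 90.6 and 67.2 CPM in INPUT and at 6.24, 5.06, 9.18 and 16.7 CPM in TRAP, a log2 fold change of -3.72 (limma adjusted p = 0.0001; 1.3e-05 with the block), or -2.77 with the trend on exon length taken out. Mt1 fell by 3.57 on the log2 scale, from 836 ± 467 to 63.6 ± 9.54 CPM (SD, n = 4). The brain metallothionein Mt3, which neurons also express, fell by 1.70 on the log2 scale (limma adjusted p = 0.0006; 0.0004 with the block), and its value was -1.05 with the length trend taken out. Lcat, which esterifies cholesterol, had a log2 fold change of -3.13, which was -2.25 without VP2.2, -3.84 without VP2.11 and -2.18 with pseudocount 1. Slc14a1, a urea transporter, had one of -2.89 on low levels, 0.0469 to 2.52 CPM in TRAP, with 12.0 CPM in the INPUT library of VP1.6 against 2.96 to 3.64 in the others. Without VP1.6 the Slc14a1 value was -1.18 and the call was lost (limma adjusted p = 0.067; 0.19 with the block), and it was also lost without VP2.2 (-3.33, adjusted p = 0.086), without VP2.11 (-3.27, adjusted p = 0.093), with quantile normalization and without the variance trend. Pseudocount 1 gave -1.49 and leaving out VP2.6 gave -3.77. Clu, which encodes the secreted chaperone clusterin, was at 630 ± 175 CPM in INPUT and 623 ± 108 in TRAP, with a log2 fold change of 0.00 that turned to -0.08 with quantile normalization (95% interval with the block -0.56 to 0.56).

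Of 9 genes of ion and water balance and their membrane partners, 6 were lower in either fit, led by Cldn10, a claudin, at a log2 fold change of -3.30 (limma adjusted p = 8.2e-05; 2.2e-05 with the block). Ttyh1, a membrane protein of glia, fell by 0.67 on the log2 scale (limma adjusted p = 0.0027; 0.026 with the block). Slc4a4, a bicarbonate cotransporter, was at 54.4 ± 17.1 CPM in TRAP and 47.2 ± 17.7 in INPUT (log2 fold change 0.26, -0.14 with the trend on exon length taken out, limma adjusted p = 0.52). Of 7 genes that handle glutamate, GABA and amino acids, 3 were lower, among them Glul, glutamine synthetase, which went from 351 ± 15.7 to 173 ± 21.7 CPM (log2 fold change -1.02, limma adjusted p = 0.00021; 0.0022 with the block).

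Surface receptors and secreted proteins gave 8 lower and 1 higher of 10, or 7 lower with the block. Ednrb, an endothelin receptor, fell by 1.39 and Mfge8, a secreted protein that marks cells for engulfment, by 0.98 on the log2 scale (limma adjusted p = 0.003 and 0.00069; 0.0023 and 0.0034 with the block). Chrdl1, a secreted antagonist of bone morphogenetic proteins, rose instead: it was at 1.01, 1.45, 1.69 and 2.79 CPM in INPUT and at 6.19, 6.23, 6.79 and 10.9 CPM in TRAP, with no overlap, and its log2 fold change was 2.17 (limma adjusted p = 0.00066; 0.0012 with the block). Sparcl1, which encodes the matrix protein hevin, was at 550 ± 80.2 CPM in TRAP and 449 ± 78.3 in INPUT (log2 fold change 0.30, limma adjusted p = 0.16), and was called higher with the trend on exon length taken out (0.47, adjusted p = 0.017), with libraries weighted (0.46, adjusted p = 0.0065) and without VP2.2 (0.50, adjusted p = 0.008), in each case without the block.

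Among 8 transcription factors, 5 were lower in either fit. Id3, an inhibitor of basic helix-loop-helix factors, fell by 2.87 and Nfia, an NFI factor, by 1.15 on the log2 scale (limma adjusted p = 0.00025 and 0.0012; 7e-05 and 0.003 with the block), with Id3 at -3.47 without VP2.11. Gli3, a factor of the Hedgehog pathway, was the 1 called higher, at a log2 fold change of 0.82 (limma adjusted p = 0.019), and lost the call with the block (adjusted p = 0.07), with libraries weighted (0.43), with the length trend taken out (0.46), without VP1.6 (0.89) and without VP2.2 (0.66). Gli2 of the same pathway was at 2.27, 1.18, 2.52 and 6.23 CPM in TRAP and at 0.531, 2.73, 0.775 and 0.984 CPM in INPUT, with overlap and no call (log2 fold change 1.31, limma adjusted p = 0.094). Gli2 was called higher with quantile normalization (2.28), with libraries weighted (1.53) and without VP2.2 (2.15, adjusted p = 0.012; 0.03 with the block). All 3 other astrocyte-enriched genes were lower, with log2 fold changes of -3.71 for Fam107a, an actin-associated protein, -2.07 for Ndrg2 and -1.98 for Mmd2.

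Of 5 genes of reactive astrocytes limma called 0 in either fit, and 1 (Cp) had an unadjusted p under 0.05 (0.036, or 0.022 with the block). Serpina3n, a secreted protease inhibitor, had a log2 fold change of 0.12 and Vim, the intermediate filament vimentin, of -0.27, which turned to 0.18 without VP2.6, while Vim was called lower with libraries weighted (-0.80, limma adjusted p = 0.023). Cp, ceruloplasmin, was at 27.1 CPM in the TRAP library of VP2.11 and at 4.91 to 5.24 in the others, against 2.85 to 3.83 in INPUT (log2 fold change 1.18, limma adjusted p = 0.069; 0.063 with the block). Without VP2.11 the Cp value was 0.50 (adjusted p = 0.046; 0.36 with the block), and it was called higher with quantile normalization (1.44) and with libraries weighted (0.69).

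**Figure D3:**
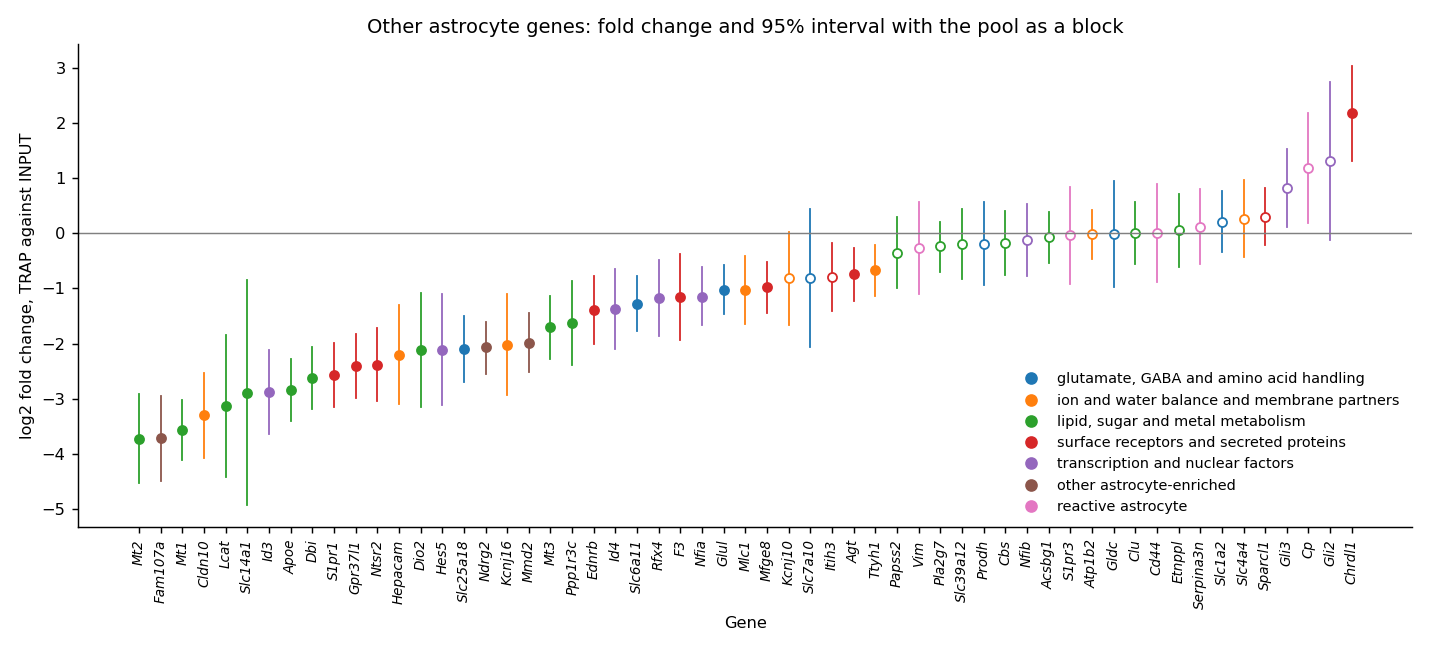
Log2 fold change of TRAP against INPUT for the further astrocyte genes with values, less 1 gene that is not reported, with 95% intervals from the blocked fit, colours for the role and filled symbols for genes called in that fit. Values run from -3.72 (Mt2) to 2.17 (Chrdl1), the 1 gene called higher in that fit.

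Genes of other cell types also differed between TRAP and INPUT, and their part in the astrocyte values was not tested. Over all genes, 24.8% were lower and 23.2% higher, or 16.8% and 15.4% with the block. The counts of each list stand beside those shares. Of 10 oligodendrocyte genes 9 were lower in TRAP and 1 was higher, with 9 and 0 in the fit with the block, and their log2 fold changes had a median of -1.79. The summed level ran from 1340 to 2350 CPM in TRAP and from 5020 to 5360 CPM in INPUT. Of 10 microglial genes 9 were lower (7 with the block), with a median of -2.18 and sums of 29.7 to 46.1 CPM in TRAP and 113 to 175 CPM in INPUT. For oligodendrocyte precursors 5 of 6 genes had values, and 3 were lower and 1 higher in either fit (median -1.01). The 1 of 5 higher is not set apart from the share of all genes.

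Most neuronal genes went the other way, with 9 of 10 higher and 1 lower (7 and 0 with the block), against 23.2% and 24.8% of all genes. Their median log2 fold change was 1.01, with sums of 23400 to 31700 CPM in TRAP against 7610 to 12700 CPM in INPUT. The 1 lower was Map2 (log2 fold change -0.46, limma adjusted p = 0.027; 0.14 with the block). Slc17a6, whose locus drives Cre, was at 162, 130, 139 and 141 CPM in TRAP and at 23.6, 14.4, 26.3 and 39.4 CPM in INPUT, a log2 fold change of 2.55 (SE 0.25, limma adjusted p = 8.8e-05; 7.3e-06 with the block). The library with the highest Slc17a6 level in INPUT was that of VP2.11, the same library that was lowest for 6 of the 10 astrocyte genes. Of 8 endothelial and pericyte genes 0 were lower and 2 higher in each fit (median 0.22). The 2 were Flt1 and Abcb1a without the block, and Flt1 and Slco1a4 with it. So few calls are not set apart from the 23.2% of all genes that were higher, or 15.4% with the block. Sums were 44.9 to 113 CPM in TRAP and 41 to 90.1 in INPUT. The highest TRAP sum was that of VP2.11, the library in which Cp was also high, and a link between them was not tested. With the median of the endothelial and pericyte list above 0, not every non-neuronal list was lower. Of 3 ependymal genes 1 was lower in either fit (median -2.60), with sums of 4.77 to 16.6 CPM in TRAP and 8.20 to 14.2 in INPUT. A count of 1 in 3 is not set apart from the 24.8% of all genes that were lower. No list was at 0 in TRAP as a whole.

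**Figure D4:**
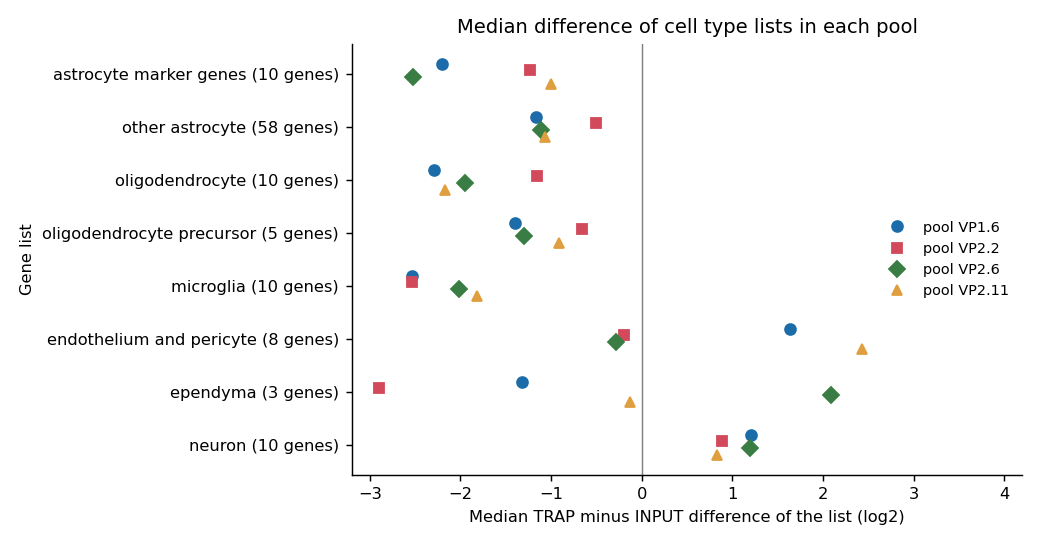
Median TRAP minus INPUT difference (log2) of each cell type list in each pool, with the number of genes tested. The astrocyte, oligodendrocyte and microglial medians lie below 0 in all 4 pools and the neuronal medians above 0, while the endothelial medians run from -0.28 to 2.43 over the pools and the ependymal ones from -2.90 to 2.09.

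The genes whose profile over the 8 libraries was most like the mean profile of the 10 astrocyte genes were found by the root mean square distance between centred log2 CPM values. The nearest were Med28 (0.07), Vamp3 (0.11), Tac1 (0.12), Necap2, Drd2, Aim2 and Hint3 (0.13 each), and Cdc42ep1, Cox8a and Fam204a (0.14 each), beside a median distance of 0.90 over all genes. Tac1 encodes the substance P precursor and Drd2 a dopamine receptor, and both are neuronal genes. Of these 10 genes 0 belonged to any cell type list used here. The largest of those lists held 58 of the 14249 genes tested, so a count of 0 says little. The 10 astrocyte genes themselves were 0.22 (Gfap) to 0.83 (Aldoc) from their own mean profile. The nearest genes were picked for the smallest distances of all genes tested. That choice favours small distances, so their lying closer to the mean than any marker is a description and was not tested.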

How the data were processed

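RNA was sequenced from TRAP and INPUT of 4 ventral pallidum pools. Per the methods and labels, the authors aligned reads with STAR (2.5.1a) and counted unique, unambiguous reads per gene. They then scaled them by TMM and fitted limma with voom quality weights. Each library has 1 log2 CPM value per gene, as deposited by the authors, and whether these were adjusted for the pool is not given in the sources used here. Their table also holds their own log2 fold changes, p-values and a signed linear fold change (a score), which were not used, and a transcript count per gene that the authors deposited, likewise not used.

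Of the 14398 entries, 45 were repeats of a gene and were dropped. CPM was computed as 2 to the power of the log2 value. A level over 1 CPM in 3 or more libraries was required, and the 14249 genes that met it were tested with limma 3.58.1 in R 4.3.3 (lmFit, eBayes with trend), fraction alone, with Benjamini-Hochberg adjustment at 0.05, as the study compared fractions with limma, though without its voom weights, which need counts. A blocked fit, with the pool as a term, is given beside it, because both libraries of a pool come from the same animals. Deviations from fraction means correlated at -0.745 to -0.495 within pools (mean -0.661, 4 pairs) and at 0.0457 to 0.441 between pools (mean 0.222, 12 pairs). A negative correlation within pools makes the error of a fit without the block too small. Pools are the replicates. Count models were not used, since whole reads could be recovered in 2 pools only.

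Positions and exon lengths come from the GENCODE annotation of GRCm38, promoters from RefSeq. The 10 genes and the lists were chosen with earlier results of these data known. Named among the other astrocyte genes were the 6 lowest and 6 highest log2 fold changes and up to 2 more per role by INPUT level, and the 10 nearest profiles. 1 of these genes is counted with its list but is not reported here. Alternatives were the block, pseudocount 1, filters, scalings, library weights, no trend, exon length (lowess) and leaving out pools. Precision rests on 4 pools.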

Additional observations from a re-analysis of the deposited data

Results flagged for a closer look

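Within each fraction the 4 log2 CPM values of each gene named were searched for a library far from the other 3 (Dixon's test, 95% critical value). Of 72 groups 4 were found, where chance gives about 3.6, and 1 of the 4 was among the 20 groups of the astrocyte markers. Gja1 was low in the INPUT library of VP2.11, at 6.24 against 6.91 to 6.98 in the other INPUT libraries. Slc14a1 was high in the INPUT library of VP1.6, at 3.59 against 1.57 to 1.87. Chrdl1 was high in the TRAP library of VP2.11, at 3.44 against 2.63 to 2.76, and Cp was high in the same library, at 4.76 against 2.29 to 2.39.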

How the results depend on the processing

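Of 190 values of the 10 astrocyte genes under other settings, 180 kept their direction and side of the threshold, 1 lost its call, 1 gained one and 8 changed sign. The lost call was Aqp4 without pool VP2.6 (-0.97, adjusted p = 0.056) and the gained one Aldoc with quantile normalization (-0.45, adjusted p = 0.029). All 8 changes of sign were of Aldoc: 0.17 with array weights, 0.11 with array weights and the replicate block, 0.03 with the exon length trend taken out (with and without the block), 0.01 without VP2.2 and 0.04 without VP2.11 (both fits), in a leave-one-out range of -0.28 to 0.04. The number of markers lower in TRAP was 8 except for 9 with quantile normalization and 7 without VP2.6 (8 there with the block), and their median ran from -2.16 to -1.54. Array weights with the block were added after seeing the data.

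With the replicate block, which pairs the libraries by pool, 4592 genes were called against 6830 without it, 33 other astrocyte genes were lower and 1 was higher. The block removed no marker's call. Leaving out 1 pool gave 4862 to 6894 genes without the block and 3232 (without VP1.6) to 4156 (without VP2.2) with it. The number of other astrocyte genes higher, 2, became 4 with quantile normalization and with array weights, 1 with the exon length trend taken out and the block, and 1 to 3 with 1 pool left out. Slc4a4 turned to -0.10 and -0.09 with array weights without and with the block, to -0.14 with the length trend out and to -0.27 without VP2.2 (leave-one-out range -0.27 to 0.57). Slc1a2 turned to -0.06 and -0.01, to -0.27 and to -0.13 under the same settings (leave-one-out -0.13 to 0.39). Clu turned to -0.08 with quantile normalization, to -0.19 without VP1.6 and to -0.11 without VP2.6 (leave-one-out -0.19 to 0.28). Without VP2.6, Serpina3n turned to -0.13 (leave-one-out -0.13 to 0.35) and Vim to 0.18 (-0.69 to 0.18). Of 491 values of the other genes named, 433 were unchanged in this sense, 25 lost a call, 12 gained one and 21 changed sign. The cause of these changes was not tested. The effective library size is unknown in 2 pools, so the precision of low values there is unknown.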
